A study of Rattus norvegicus with 6 samples.

Results

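The genes described here carry out or prepare DNA replication in S phase. They were taken from the deposited count table by gene symbol from a list of 40 names, and all 40 were found among the 17771 genes of the table. Each of them passed the filter on low counts that left 14213 genes for testing, so no member was lost; the lowest count of any member in any library was 131. The tissue is the cornea of Wistar rats that carried a corneal allograft from SD (Sprague-Dawley) donors, collected at day 7. After surgery, recipients of the resveratrol group (3 libraries) were injected each day into the peritoneum with resveratrol, a polyphenol found in plants. Recipients of the control group (3 libraries) were given saline by the same route, so allograft, surgery and injection were common to both groups. The labels give no age, do not separate graft from host rim, and do not say whether each library is a separate animal, so each p-value here reflects the spread among these libraries, and that spread may be technical.

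Before a cell copies its genome, the origin recognition complex, Cdc6 and Cdt1 load the Mcm2-7 helicase onto chromatin in G1, and Cdc45 and GINS then switch it on at the start of S phase. Polymerase alpha-primase, the clamp Pcna with its loader, polymerases delta and epsilon, and the enzymes that join Okazaki fragments then build the new strands, while ribonucleotide reductase, Tyms and Tk1 supply deoxynucleotides. Transcription of many of these genes is switched on at the G1/S boundary by E2F factors. In the cornea, replicating cells are known mainly from the limbal and basal epithelium, with stromal cells, vessels and leukocytes contributing after wounding or grafting. Bulk RNA does not show which cells held the transcripts, and more replicating cells cannot be told apart from more RNA per cell.

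Total counts were 36904770 to 37301669 per library in resveratrol and 35068936 to 37460756 in control. Levels are given as CPM, counts scaled to library size with TMM factors, or, where genes are compared with each other, as the authors' FPKM, which divides by transcript length. As a check of the labelled tissue, the corneal keratin Krt12 had 37566, 35808 and 31838 CPM in resveratrol 1, 2 and 3 and 35194, 33049 and 34266 CPM in control 1, 2 and 3. One replicate of each group, numbered 1, has a description closing with Sep, and all others close with Oct; the labels do not say what this marks.

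All 40 replication genes had a higher fitted mean in resveratrol than in control, whereas 48.8% of all 14213 tested genes did. The log2 fold changes, resveratrol over control, lay between 0.14 and 0.61 with a median of 0.33, against a median of -0.0080 over all genes tested. The median corresponds to a fold change of 1.26. None of the 40 passed edgeR's quasi-likelihood test at an adjusted p of 0.05. The smallest adjusted p among them was 0.134, and 0% of all genes passed. At an unadjusted p under 0.05 edgeR gave 18 of the 40, all higher, which is 45.0% of the members against 7.84% of all genes that were higher at this level. DESeq2, run as an alternative, called 4 of the 40 as higher, Mcm5, Cdt1, Orc6 and Pcna, against 2.23% called higher, 4.64% called lower and 6.87% called in either direction of the genes for which it gave an adjusted p.

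**Figure D1:**
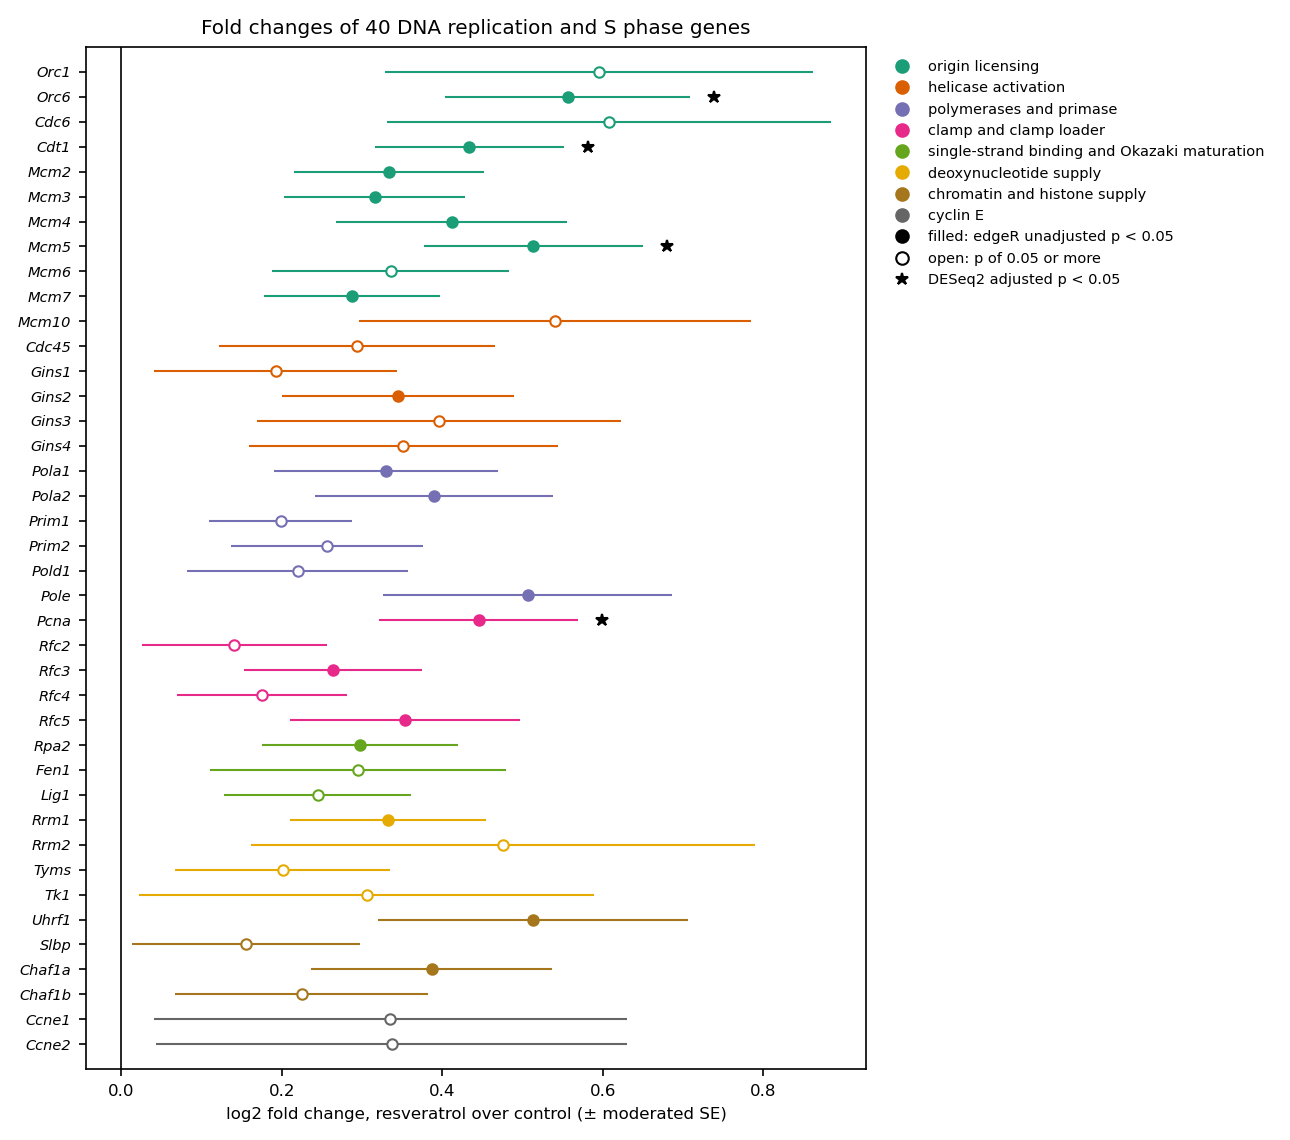
Log2 fold changes (x axis, resveratrol over control, ± moderated SE) of the 40 genes, coloured by role. All points lie right of 0, between 0.14 and 0.61; filled points have an unadjusted edgeR p under 0.05 (18 genes) and stars mark the 4 genes called by DESeq2.

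The groups did not overlap for 21 of the 40 genes, with every resveratrol library above every control library, which is 52.5% of the members against 12.2% of all genes tested. No member lay wholly lower in resveratrol, where the share over all genes was 14.4%. The libraries were not alike within a group. Taken as the median over the 40 genes of the log2 CPM relative to each gene's own mean over 6 libraries, resveratrol 1, 2 and 3 stood at 0.093, 0.16 and 0.28, and control 1, 2 and 3 at -0.13, -0.38 and 0.027. Control 2 was the lowest of all libraries for 36 genes and resveratrol 3 the highest for 29. Control 3 was the control nearest to resveratrol: all 3 resveratrol libraries exceeded control 2 for 39 genes, control 1 for 33 and control 3 for 23. The share of all genes was not taken against single controls. It cannot be below the 12.2% found against all 3 controls, so these counts compare the controls only.

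The number of members with an unadjusted p under 0.05 varied when 1 library was left out, which also left fewer libraries to test. The count of 18 became 5 without control 2, 5 without resveratrol 3 and 10 without resveratrol 2. It was 17 without resveratrol 1, 13 without control 1 and 24 without control 3. The share of all genes at this level was not taken in these fits. A change in the members can thus not be told apart from a change in the whole test. The median log2 fold change of the members stayed above 0 in each of these fits. It was 0.22 without control 2, 0.28 without resveratrol 3 and 0.34 without resveratrol 2. Without resveratrol 1, control 1 and control 3 it was 0.39, 0.34 and 0.44. In each of these fits, all 40 members again had a higher mean in resveratrol. The DESeq2 calls also moved with single libraries. DESeq2 called 0 members without control 2 and 0 without resveratrol 2, Mcm5 alone without resveratrol 1, Orc6 alone without resveratrol 3, and Pole alone, which is not among the 4, without control 1. Without control 3 it called 13, with Mcm5, Cdt1 and Pcna among them but not Orc6. Over all genes, DESeq2 calls in either direction numbered 530, 642 and 826 without resveratrol 1, 2 and 3. They numbered 623, 390 and 1041 without control 1, 2 and 3, against 1007 with every library. In the Oct libraries alone (2 per group) the median was 0.38 with 40 of 40 genes higher, and edgeR passed 0 at the adjusted threshold. Between the Sep libraries, 1 per group and thus without a test, the median difference was 0.22 with 35 of 40 higher. The members not higher between the Sep libraries were Gins3, Gins4, Tyms, Tk1 and Ccne1.

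**Figure D2:**
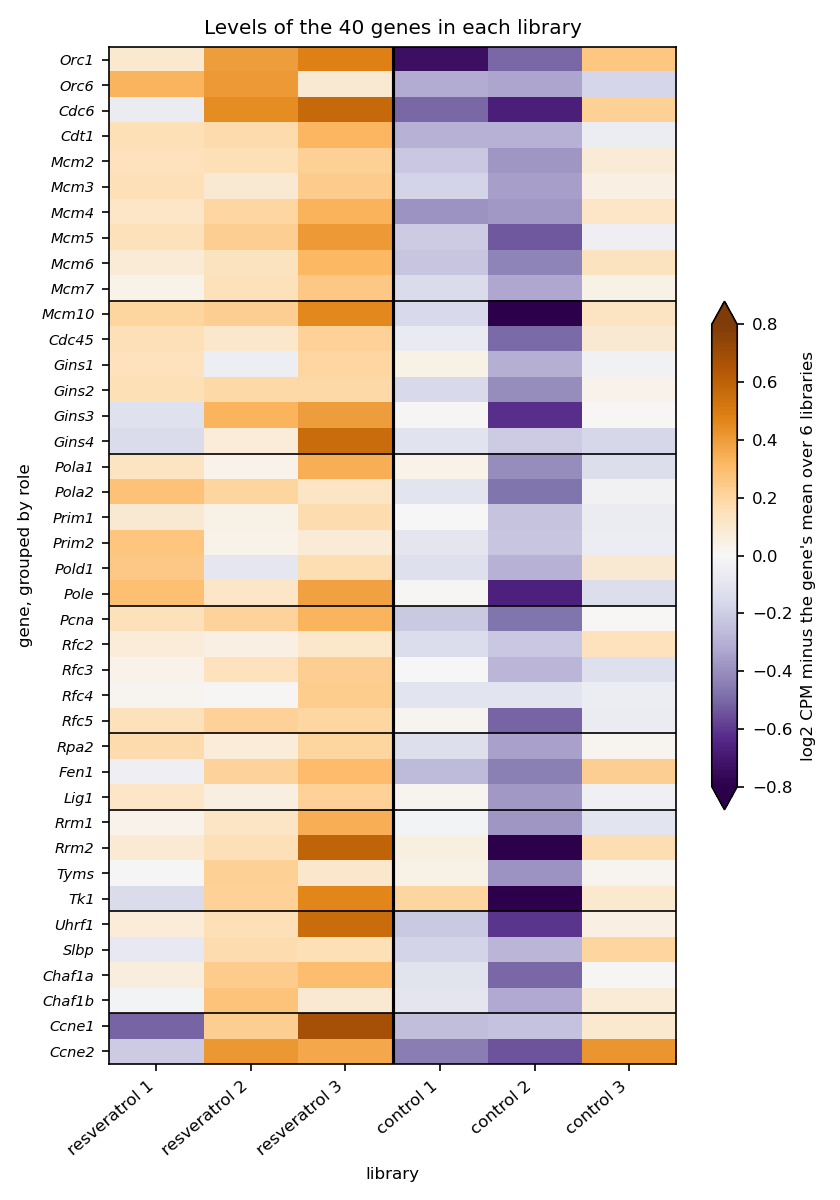
Heat map of log2 CPM minus the mean of each gene over 6 libraries (colour scale, orange above and purple below the mean) for the 40 genes (rows, grouped by role) in each library (columns). Control 2 is the lowest column for 36 genes and resveratrol 3 the highest for 29, with control 3 closest to the resveratrol libraries.

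Origin licensing genes showed the largest median difference of the 8 role groups (log2 0.42, 10 of 10 higher, 7 at an unadjusted p under 0.05, 3 called by DESeq2). Mcm5, a subunit of the replicative helicase, was at 62.4, 66.0 and 75.04 CPM in resveratrol and at 48.8, 39.0 and 54.8 CPM in control. Its groups did not overlap, and the log2 fold change was 0.51 ± 0.14 (edgeR adjusted p = 0.134, DESeq2 adjusted p = 0.0228). Cdt1, which brings the helicase to origins, was at 16.2, 16.5 and 18.2 CPM in resveratrol and at 11.8, 11.8 and 14.0 CPM in control. Again no library of either group crossed into the range of the other, with a log2 fold change of 0.43 ± 0.12 (edgeR adjusted p = 0.139, DESeq2 adjusted p = 0.0317). Orc6, the smallest subunit of the origin recognition complex, was at 7.29, 7.70 and 6.19 CPM in resveratrol and at 4.66, 4.60 and 5.15 CPM in control. Here resveratrol 3 was the lowest of its group, unlike for most members, and the log2 fold change was 0.56 ± 0.15 (edgeR adjusted p = 0.143, DESeq2 adjusted p = 0.0314).

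The other helicase subunits had smaller log2 fold changes than Mcm5, and control 3 was the highest control for each, as it was for Mcm5. Mcm2 was at 95.3, 96.6 and 101 CPM in resveratrol and at 74.2, 66.6 and 91.6 CPM in control (log2 0.33 ± 0.12). Mcm3 was at 55.4, 52.9 and 58.9 CPM in resveratrol and at 43.9, 38.9 and 51.4 CPM in control (0.32 ± 0.11). Both were separated between the groups, control 3 being the highest control. Mcm4 was at 70.3, 74.4 and 81.9 CPM in resveratrol and at 49.8, 50.3 and 70.3 CPM in control (0.41 ± 0.14), and Mcm7 was at 77.0, 83.1 and 89.6 CPM in resveratrol and at 67.8, 59.7 and 77.0 CPM in control (0.29 ± 0.11). For Mcm4 and Mcm7, control 3 reached the lowest resveratrol library, so these groups overlapped slightly. Orc1, Cdc6 and Mcm6 had log2 fold changes of 0.60 ± 0.27, 0.61 ± 0.28 and 0.34 ± 0.15 with unadjusted p of 0.0621, 0.0653 and 0.0550. Orc1, the ATPase of the origin complex, and Cdc6, the loading factor, had the largest fold changes of the members and also wide spread, with control 3 inside the resveratrol range. As a measure of level per transcript length, the 6 genes Mcm2 to Mcm7, whose proteins form a ring with 1 copy of each, lay within a factor of 1.55 to 1.75 of each other in FPKM in every library.

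Promoters were searched for words of the E2F motif in RefSeq windows (assembly GRCr8, not the build the authors used) that run from 250 bases before to 50 after the start of the gene. The motif searched was TTTCCCGC, TTTCGCGC, TTTGCCGC or TTTGGCGC on either strand, and CCAAT was searched as a second motif. The sequences shown are those of the 4 genes called by DESeq2 and, as an example of subunits of 1 complex, the stretches with E2F words of the other Mcm2-7 genes that hold one. They are written 5' to 3' on the strand of the gene, with the E2F words and CCAAT boxes in capitals.
Mcm5, whole window, chr19:13488563-13488862, plus strand: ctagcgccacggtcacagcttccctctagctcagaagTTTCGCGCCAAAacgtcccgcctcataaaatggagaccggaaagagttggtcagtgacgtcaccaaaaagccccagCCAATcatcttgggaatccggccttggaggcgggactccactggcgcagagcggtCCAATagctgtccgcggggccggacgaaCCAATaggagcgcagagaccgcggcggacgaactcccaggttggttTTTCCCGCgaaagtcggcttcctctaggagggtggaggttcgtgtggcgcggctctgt
Cdt1, whole window, chr19:67528999-67529298, plus strand: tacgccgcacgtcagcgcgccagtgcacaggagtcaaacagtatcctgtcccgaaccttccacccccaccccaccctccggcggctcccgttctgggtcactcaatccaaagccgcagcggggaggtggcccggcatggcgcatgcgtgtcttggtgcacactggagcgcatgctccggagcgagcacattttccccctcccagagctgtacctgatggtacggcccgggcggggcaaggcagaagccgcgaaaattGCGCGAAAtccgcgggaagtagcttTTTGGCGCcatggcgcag
Orc6, whole window, chr19:37938807-37939106, minus strand: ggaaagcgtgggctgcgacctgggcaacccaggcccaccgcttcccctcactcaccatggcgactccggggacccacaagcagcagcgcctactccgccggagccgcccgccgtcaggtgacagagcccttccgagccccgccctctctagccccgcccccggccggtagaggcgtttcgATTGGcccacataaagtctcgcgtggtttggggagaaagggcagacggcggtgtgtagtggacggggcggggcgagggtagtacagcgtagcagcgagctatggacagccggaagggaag
Pcna, whole window, chr3:139955771-139956070, minus strand: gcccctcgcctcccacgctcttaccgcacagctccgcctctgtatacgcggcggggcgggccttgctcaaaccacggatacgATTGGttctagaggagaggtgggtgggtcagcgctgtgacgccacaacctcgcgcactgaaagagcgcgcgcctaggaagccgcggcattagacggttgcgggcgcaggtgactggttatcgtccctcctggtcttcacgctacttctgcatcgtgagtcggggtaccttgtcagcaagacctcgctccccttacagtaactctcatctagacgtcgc
Mcm2, stretch, chr4:122918087-122918118, minus strand: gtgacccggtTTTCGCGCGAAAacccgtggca
Mcm3, stretch, chr9:30733716-30733762, minus strand: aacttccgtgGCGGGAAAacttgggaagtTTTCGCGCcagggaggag
Mcm6, stretch, chr13:42404470-42404501, minus strand: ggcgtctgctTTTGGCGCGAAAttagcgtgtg
Mcm7, stretch, chr12:22163213-22163421, minus strand: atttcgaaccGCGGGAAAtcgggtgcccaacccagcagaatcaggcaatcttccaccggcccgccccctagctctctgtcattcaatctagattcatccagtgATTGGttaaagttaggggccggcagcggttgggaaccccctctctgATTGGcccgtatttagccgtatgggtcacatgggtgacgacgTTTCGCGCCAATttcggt

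In Mcm2 and Mcm6 the capitals are a pair of E2F words on opposite strands that share their central bases, and the same arrangement stands in Mcm5 upstream of its CCAAT boxes. The Mcm2 pair lies at bases -14 to -3 from the gene start, and the Mcm6 pair at bases -139 to -128. Mcm5 holds 3 E2F words and 3 CCAAT boxes, and its last E2F word ends at base -1. In Mcm7 the E2F word nearest to the start overlaps a CCAAT box. The windows of Orc6 and Pcna hold 1 CCAAT box each and none of the 4 E2F words, which says only that these letters are not in this window.

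Of the 40 genes, 34 matched a RefSeq promoter entry, and Ccne2, Gins4, Mcm4, Rrm2, Cdc6 and Orc1 did not. The 34 genes had 36 windows, and a gene was counted if any of its windows held the motif. An E2F word stood in a window of 16 of these 34 genes (47.1%), against 2.14% of all 33469 promoter windows and 4.12% of the 10881 tested genes with an entry. A CCAAT box stood in 20 of 34 (58.8%), against 37.5% of all windows and 38.8% of the tested genes. The CHR element of mitotic promoters (TTTGAA or TTTAAA) stood in 5 of 34 (14.7%), against 28.2% of all windows and 20.4% of the tested genes. Only 1 of the 26 E2F words overlapped a CCAAT box. The member windows had a median GC content of 59.8%, against 51.7% over all windows; the part of base composition in these shares was not tested. The median log2 fold change was 0.32 in the 16 genes with an E2F word (0.16 to 0.51) and 0.32 in the 18 without (0.14 to 0.56). An unadjusted p under 0.05 was found for 10 of the 16 and for 7 of the 18, and a difference between these sets was not tested. A match of letters is a description and does not show that a factor was bound.

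**Figure D3:**
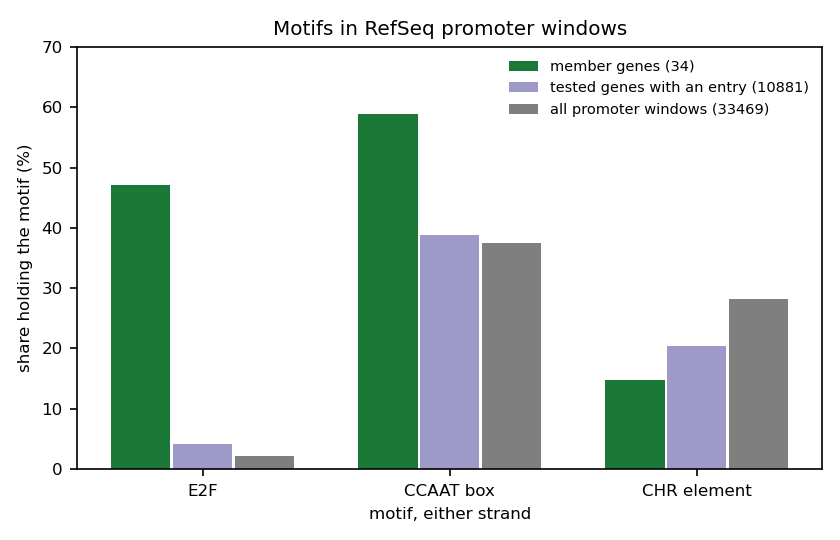
Share (y axis, %) that holds each motif on either strand, of the 34 member genes, the 10881 tested genes with an entry and all 33469 promoter windows. The first 2 are shares of genes with the motif in any of their windows, and the last is a share of windows. The E2F bar is 47.1% for the members, against 4.12% and 2.14%, and the CHR bar is 14.7% for the members, against 20.4% and 28.2%.

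Genes of helicase activation were all higher in mean (6 of 6, median log2 0.35), and 1 of them had an unadjusted p under 0.05. Gins2, a subunit of the GINS complex, was at 10.1, 10.3 and 10.2 CPM in resveratrol and at 8.08, 6.80 and 9.20 CPM in control (0.34 ± 0.14, edgeR adjusted p = 0.250). Its resveratrol libraries were nearly equal and all above control. Gins4 was at 7.48, 8.72 and 12.2 CPM in resveratrol and at 7.70, 7.18 and 7.40 CPM in control (0.35 ± 0.19). Only resveratrol 2 and 3 lay above control for Gins4, so its groups overlapped. Mcm10, which helps to start the helicase, was separated between the groups (0.54 ± 0.24, unadjusted p = 0.0562), as was Cdc45, its cofactor (0.29 ± 0.17), whereas Gins1 (0.19 ± 0.15) and Gins3 (0.40 ± 0.23) overlapped. Per transcript length the GINS subunits were less even than the Mcm2-7 ring: the highest exceeded Gins2 by a factor of 3.28 to 4.59 in FPKM across libraries.

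The 6 polymerase and primase genes were also higher in mean (median 0.29), 3 of them at an unadjusted p under 0.05. Pole, the catalytic subunit of the leading-strand polymerase epsilon, was at 29.8, 26.3 and 31.7 CPM in resveratrol and at 24.4, 15.3 and 22.1 CPM in control (0.51 ± 0.18, edgeR adjusted p = 0.195). Every resveratrol library was above every control, with control 2 far below the other controls. Pola2, the accessory subunit of polymerase alpha, was at 13.1, 12.4 and 11.8 CPM in resveratrol and at 10.1, 7.81 and 10.6 CPM in control (0.39 ± 0.15). Pola1, its catalytic subunit, was at 28.6, 26.8 and 33.3 CPM in resveratrol and at 26.9, 19.8 and 23.9 CPM in control (0.33 ± 0.14), and control 1 just exceeded resveratrol 2. Prim1, the primase that makes the RNA primers, was at 52.9, 51.1 and 56.1 CPM in resveratrol and at 49.6, 42.2 and 47.7 CPM in control (0.20 ± 0.089, unadjusted p = 0.0550). The 4 genes of this one complex were uneven per length, as Prim1 exceeded Pola2 by a factor of 7.51 to 10.1 in FPKM. Prim2 (0.26 ± 0.12) was separated between the groups and Pold1, of the lagging-strand polymerase delta, was not (0.22 ± 0.14).

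**Figure D4:**
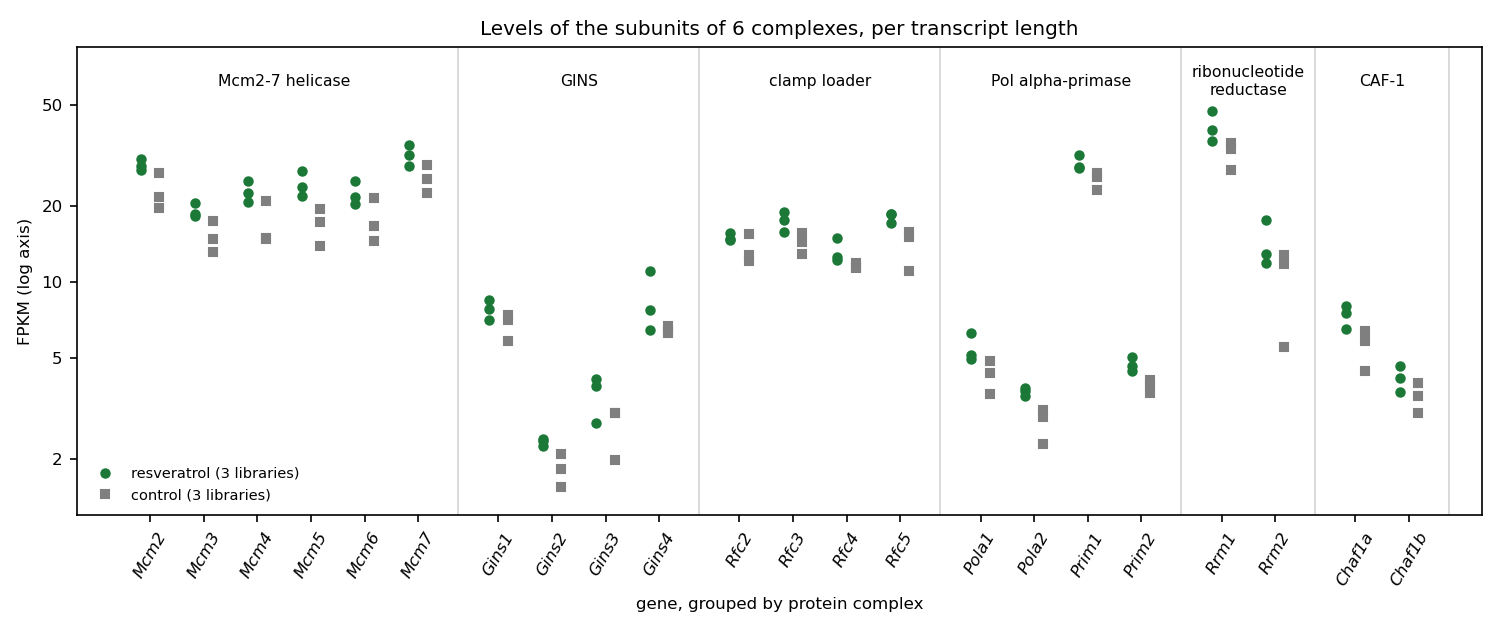
FPKM (log y axis) of the subunits of 6 complexes, 1 point per library, with resveratrol left of control for each gene. The Mcm2-7 and clamp loader subunits sit close together, whereas Prim1 lies well above Pola1, Pola2 and Prim2, and Gins1 and Gins4 above Gins2 and Gins3.

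The clamp and its loader gave 3 of 5 genes at an unadjusted p under 0.05 and a median of 0.26. Pcna, the ring that tethers polymerases to DNA, was the most abundant member per length, at 99.4 ± 8.38 FPKM in resveratrol and 72.1 ± 11.8 FPKM in control (SD, n = 3 each). In CPM it was at 108, 113 and 122 in resveratrol and at 84.0, 70.5 and 97.9 in control, with no overlap (0.45 ± 0.12, edgeR adjusted p = 0.146, DESeq2 adjusted p = 0.0344). Rfc5 was at 28.0, 29.3 and 28.9 CPM in resveratrol and at 25.5, 17.8 and 24.2 CPM in control (0.35 ± 0.14). Rfc3 was at 20.5, 22.1 and 23.5 CPM in resveratrol and at 20.04, 16.6 and 18.5 CPM in control (0.26 ± 0.11). Both loader subunits were separated between the groups, Rfc3 only narrowly. Rfc4 (0.18 ± 0.11) was also separated between the groups, whereas Rfc2 (0.14 ± 0.12) overlapped. Rfc4 and Rfc2 had the smaller differences, and that of Rfc2 was the smallest of the 40. The 4 loader genes lay within a factor of 1.17 to 1.47 of each other in FPKM.

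Among the genes for single-strand binding and Okazaki fragment maturation, Rpa2, a subunit of the single-strand binding protein RPA, was at 18.7, 17.4 and 19.0 CPM in resveratrol and at 15.1, 13.0 and 16.7 CPM in control (0.30 ± 0.12). Lig1, the ligase that seals the fragments, was at 63.0, 60.3 and 67.6 CPM in resveratrol and at 59.1, 45.1 and 56.9 CPM in control (0.24 ± 0.12, unadjusted p = 0.0675). Both showed no overlap, while Fen1, the flap nuclease, did overlap through control 3 (0.29 ± 0.18).

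Deoxynucleotide supply was the least separated of the larger role groups: 1 of 4 genes did not overlap, and control 2 stood apart. Rrm1, the large subunit of ribonucleotide reductase, was at 111, 119 and 139 CPM in resveratrol and at 107, 83.9 and 102 CPM in control (0.33 ± 0.12, edgeR adjusted p = 0.213). Rrm2, its S phase subunit, was at 39.4, 41.4 and 55.9 CPM in resveratrol and at 38.6, 18.0 and 41.7 CPM in control (0.48 ± 0.31). For Rrm2, control 2 lay at less than any other library and control 3 above resveratrol 1 and 2. Tk1, thymidine kinase, was at 36.2, 46.6 and 55.4 CPM in resveratrol and at 46.3, 22.6 and 42.9 CPM in control (0.31 ± 0.28), and Tyms, thymidylate synthase, differed by 0.20 ± 0.13. The FPKM ratio of Rrm1 to Rrm2 was 2.68 to 3.09 in resveratrol and 3.00, 5.02 and 2.63 in control 1, 2 and 3, so control 2 also differed in the balance of these subunits.

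Of the chromatin genes, Uhrf1, which guides DNA methylation maintenance, was at 31.5, 33.4 and 44.2 CPM in resveratrol and at 25.8, 19.6 and 31.0 CPM in control (0.51 ± 0.19). Chaf1a, the large subunit of the histone chaperone CAF-1, was at 22.6, 25.5 and 26.6 CPM in resveratrol and at 20.1, 15.3 and 21.8 CPM in control (0.39 ± 0.15). Both were separated between the groups, with edgeR adjusted p of 0.218 for Uhrf1 and 0.223 for Chaf1a. Slbp, which binds histone mRNA, was at 33.7, 40.1 and 39.8 CPM in resveratrol and at 31.5, 29.4 and 41.0 CPM in control (0.16 ± 0.14), its highest library being control 3. Chaf1b differed by 0.22 ± 0.16 with overlap.

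The E-type cyclins, which drive entry into S phase with Cdk2, had fold changes near the member median but wide errors. Ccne1 was at 4.37, 7.30 and 9.98 CPM in resveratrol and at 5.23, 5.28 and 6.65 CPM in control (0.34 ± 0.30, unadjusted p = 0.288). Ccne2 differed by 0.34 ± 0.29. For Ccne1, resveratrol 1 was the lowest and resveratrol 3 the highest of all 6 libraries, so the difference was within the spread of the resveratrol group.

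Other genes of the replication pathway, from 4 lists of genes that are not members, were higher in mean in 72 of 78 tested (median log2 0.24). Of the 78, 25 had an unadjusted p under 0.05 and were higher and 0 were lower, against 7.84% and 11.7% of all genes tested. DESeq2 called 9, all higher, against 2.23% called higher among all genes with an adjusted p. The groups did not overlap for 31 higher and 3 lower genes, against 12.2% and 14.4% of all genes tested. Checkpoint and fork repair genes were higher in 16 of 16 (median 0.42, 9 at an unadjusted p under 0.05). Brca1, a repair factor of stalled forks, was at 12.5, 12.4 and 14.7 CPM in resveratrol and at 8.80, 7.13 and 8.98 CPM in control (0.67 ± 0.14, edgeR adjusted p = 0.116, DESeq2 adjusted p = 0.00321). Usp1 (0.43 ± 0.13) and the checkpoint kinase Atr (0.42 ± 0.12) were also separated between the groups. Among 34 further replisome and origin genes 30 were higher in mean, with Atad5, which unloads Pcna, at 0.74 ± 0.17, the initiation factor Topbp1 at 0.48 ± 0.14 and Mcmbp at 0.24 ± 0.071. The other 4, named after their values were seen, were Pold4 (-0.19) and the RNase H2 genes Rnaseh2a (-0.16), Rnaseh2b (-0.23) and Rnaseh2c (-0.36). For each of these 3 RNase H2 genes every resveratrol library was below every control library, while Pold4 overlapped. Over all genes tested, 14.4% lay wholly lower in resveratrol, and in this list 15 of 34 lay wholly higher. The unadjusted edgeR p was 0.0848 for Rnaseh2a, 0.0562 for Rnaseh2b and 0.136 for Rnaseh2c.

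Nucleotide supply outside the member list gave 14 of 16 genes higher in mean (median 0.17), with Gart (0.41 ± 0.11) and Ppat (0.44 ± 0.14) of purine synthesis and Mthfd1 of the folate cycle (0.37 ± 0.11). Chromatin replication genes were higher in 12 of 12 (median 0.22), with Mms22l (0.51 ± 0.15), the histone chaperone Nasp (0.30 ± 0.12) and the remodeller Hells, whose groups overlapped (0.60 ± 0.24). Cyclins, kinases and inhibitors of G1 showed no common direction, 8 of 16 higher and a median of 0.013. In that list Ccnd1, cyclin D1, was at 190, 239 and 193 CPM in resveratrol and at 146, 160 and 172 CPM in control (0.38 ± 0.11, edgeR adjusted p = 0.161). Cdkn1c, the CDK inhibitor p57, was at 7.35, 9.23 and 6.50 CPM in resveratrol and at 14.2, 12.7 and 11.6 CPM in control (-0.74 ± 0.17, edgeR adjusted p = 0.121, DESeq2 adjusted p = 0.00569). Cdkn2d, the next by p-value, overlapped between the groups (0.44 ± 0.25).

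Mitotic genes had a median fold change close to that of the members, 0.31 with 19 of 20 higher. An unadjusted edgeR p under 0.05 was found for 0 of 20, against 7.84% of all genes higher and 11.7% lower. Separation between the groups was found for 0 of 20, against 12.2% of all genes wholly higher and 14.4% wholly lower. Whether these counts differ from the shares was not tested. By median, resveratrol 3 was the highest and control 2 the lowest library in the mitotic and the replication list. The order of the libraries between these 2 differed. The median deviation of the mitotic genes was -0.22, 0.052 and 0.62 in resveratrol 1, 2 and 3 and 0.27, -0.58 and -0.079 in control 1, 2 and 3. Mki67, the proliferation marker Ki-67, was at 96.5, 103 and 158 CPM in resveratrol and at 127, 47.8 and 73.1 CPM in control (0.52 ± 0.35). Top2a, the topoisomerase of dividing cells, differed by 0.46 ± 0.28 and Ube2c, a ubiquitin-conjugating enzyme of mitotic exit, by 0.47 ± 0.26. Control 1 was above resveratrol 1 and 2 for Mki67, whereas for 33 of the 40 replication genes it was below all resveratrol libraries. The share of all genes with control 1 below all resveratrol libraries was not taken. Whether the 2 lists differ in response was not tested.

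**Figure D5:**
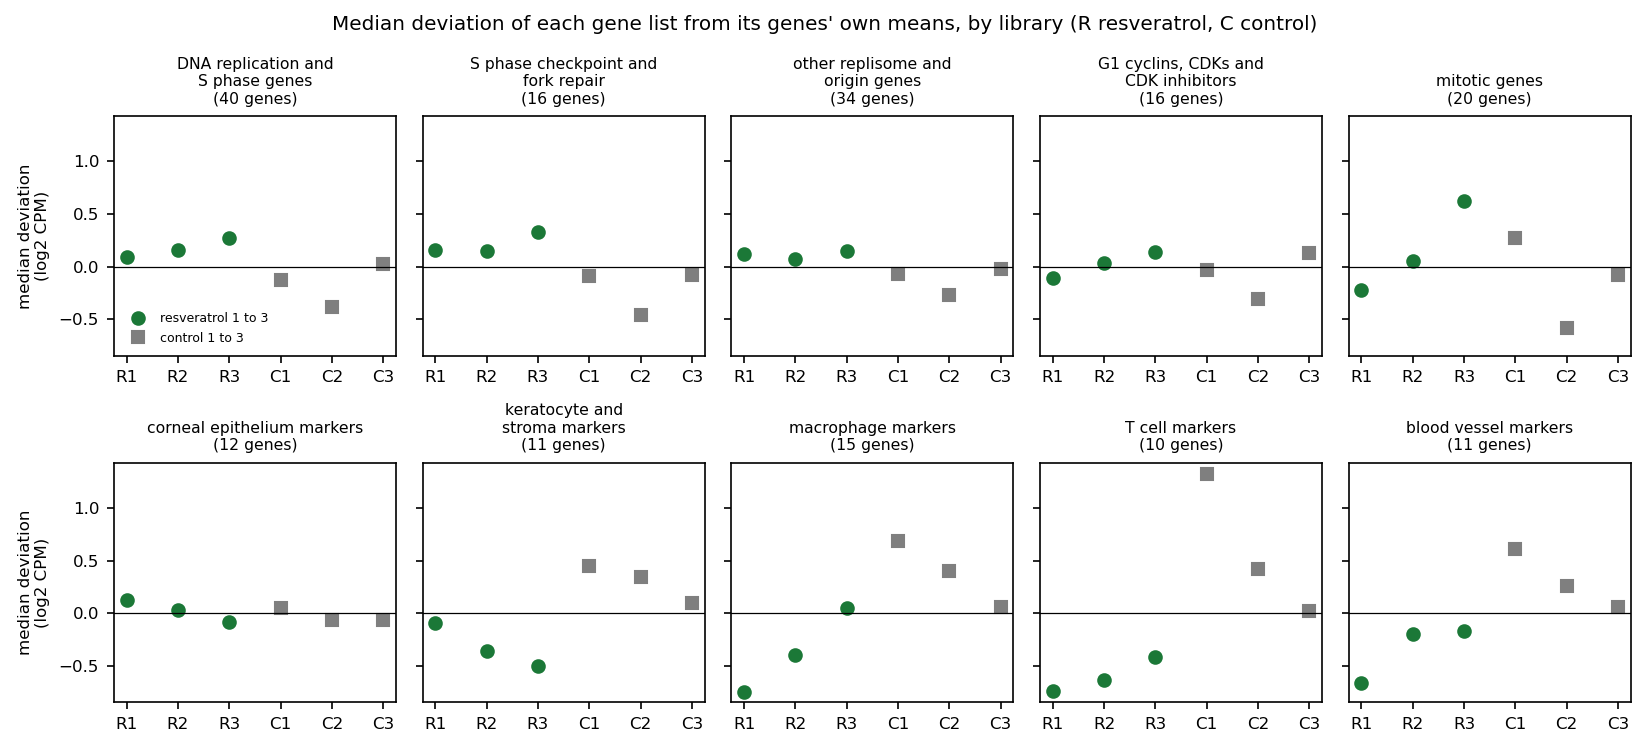
Median deviation of log2 CPM from each gene's own mean (y axis) for 10 gene lists in resveratrol 1 to 3 (R1 to R3, circles) and control 1 to 3 (C1 to C3, squares). The replication and fork repair lists are higher in resveratrol, the mitotic list is led by R3 and C1, and stromal, T cell and blood vessel markers are lower in resveratrol.

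T cell, blood vessel and stromal markers were lower in mean in resveratrol, as were most macrophage markers, whereas corneal epithelium and endothelium markers were not. Summed over their tested members, 10 of 12 T cell markers gave 18.6 to 30.4 CPM in resveratrol and 32.8 to 66.0 CPM in control. All 10 were lower in mean. Most of this sum came from Cd4, which averaged 17.03 CPM in resveratrol and 29.82 CPM in control. The sum therefore mainly follows this gene and does not by itself measure T cells. Cd3e averaged only 0.417 CPM in resveratrol and 1.577 CPM in control, and Cd3g and Cd5 were lower still. The 15 tested of 16 macrophage markers summed to 429 to 657 CPM in resveratrol and 600 to 1123 CPM in control (13 lower), and the 11 of 12 blood vessel markers to 384 to 477 CPM in resveratrol and 575 to 825 CPM in control (11 lower). Stromal markers (11 of 12 tested, 11 lower) summed to 10558 to 14421 CPM in resveratrol and 16105 to 24341 CPM in control. Within this list the collagens differed most, with Col1a1 averaging 3593 CPM in resveratrol and 7044 CPM in control and Col3a1 1170 CPM in resveratrol and 2859 CPM in control. The keratocyte proteoglycan genes were closer, with Kera at 187 CPM in resveratrol and 214 CPM in control, and Dcn at 1670 CPM in resveratrol and 1754 CPM in control. Corneal epithelium markers (12 of 14 tested, 9 higher) overlapped, at 94686 to 110424 CPM in resveratrol and 95197 to 104985 CPM in control, with a median log2 fold change of 0.049 and none at an unadjusted p under 0.05. Krt3, Trp63, Marco, Trac and Robo4 of these lists were not analysed here. Corneal endothelium markers (7 tested, 4 higher) summed to 1261 to 1813 CPM in resveratrol and 1214 to 1424 CPM in control, and erythroid markers (3 of 7 tested) to 9.42 to 21.2 CPM in resveratrol and 13.1 to 29.3 CPM in control. The part of these cell types in the difference of the replication genes was not tested.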

How the data were processed

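RNA from corneas was sequenced as paired-end reads, per the labels' protocols. The authors deposited raw gene counts and FPKM values, per the file headers and the values; FPKM was also deposited per library and equalled the table in 6 of 6. The submitters' processing notes name mRatBN7.2, R 3.2.0 and DESeq2; the sources used here do not give aligner, counter, annotation or strand setting. The header of the count table lacks a separator, and its columns were checked against the FPKM columns of the same names.

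Counts were filtered (filterByExpr), TMM-scaled and compared between resveratrol and control by edgeR 4.0.16 (glmQLFit and glmQLFTest without covariates, R 4.3.3). Benjamini-Hochberg adjustment ran over all 14213 genes; untested genes held 0.0237% of reads counted. Standard errors are from limma 3.58.1 on log2 CPM (prior count 2), beside edgeR's fold change. DESeq2 1.42.0 was an alternative. The fits were tested on simulated data. With 3 against 3 libraries an exact permutation test cannot go below 0.1, so none was made.

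By the RefSeq table (GRCr8, names only; 40 of 40 matched), 11 members have a similarly named copy (Gins4, Mcm2, Mcm4, Mcm7, Pcna, Rfc4, Rfc5, Rrm1, Rrm2, Slbp and Tk1) and 12 overlap another gene, which makes their levels uncertain wherever such genes share reads.

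Members and lists were chosen with earlier results of these data known. Values in every library are given for members with an unadjusted edgeR p under 0.05 or a DESeq2 call, and for the most abundant member (FPKM) and the one with the smallest p in each role group. From each wider list the 3 genes with the smallest edgeR p are named. Rrm2 and Tk1 were given per library after their values were seen.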

Additional observations from a re-analysis of the deposited data

How the results depend on the processing

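All 40 members had a higher mean in resveratrol under every scaling, filter, test, covariate and left-out library tried, and no named member changed sign. Their median log2 fold change was 0.22 to 0.44 over the fits that leave out 1 library. With another scaling, another filter, voom, robust edgeR, the Sep or Oct ending as covariate, only the Oct libraries, or FPKM it stayed within 0.31 to 0.38, and the count of members passing stayed at 0. The count with an unadjusted p under 0.05 was 5 to 24 when a library was left out, and the share of all genes was not taken there. Genes passing edgeR numbered 0, and 0 to 21 when a library was left out (21 without control 3, 1 without resveratrol 2); at a threshold of 0.1 they numbered 0. DESeq2 passed 1007 genes and 4 members. Added after the data were seen, DESeq2 passed 390 to 1041 genes and 0 to 13 members when a library was left out (genes: 530, 642 and 826 without resveratrol 1, 2 and 3, and 623, 390 and 1041 without control 1, 2 and 3), 672 and 5 with the replicate block, 1111 and 3 with the ending as a covariate, and 404 and 0 in the Oct libraries alone. With the replicate block edgeR passed 0 members, with a median of 0.34. The labels do not say that replicate numbers pair samples, and same-numbered libraries did not deviate together (correlations of -0.0044, -0.012 and -0.023). The cause of these changes was not tested. In windows shortened to 150 bases before the start, CHR elements stood in 3 member promoters and E2F words in 14; TTTGGCGC alone stood in 7 and TTTCCCGC alone in 7, since fewer words were searched.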
